A study of Mus musculus with 4 samples.

Results

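The Ly6 genes described here are Ly6a, Ly6c1, Ly6d, Ly6e, Ly6g and Lypd8, a family of small cell-surface proteins named together because some of them mark regenerating epithelium. They were found by their symbols in the deposited gene table, and all 6 were present among its 30360 genes. The data are single-cell RNA counts from mouse colonic organoids, cultures grown in Matrigel from digested pieces of distal colon. The donors were wildtype mice or Tnfr2-/- mice, which lack TNF receptor 2 (encoded by Tnfrsf1b), aged 16 weeks per the labels. The study's methods name C57BL/6 mice as wildtype and a whole-body Tnfr2-/- line. Tumor necrosis factor (TNF), at 20 ng/ml, was given to 1 culture of each genotype, begun on day 1 after passage 5 and ended on day 6, and the other culture had vehicle. All 4 cultures were dissociated on day 7 after that passage and depleted of apoptotic cells before 3' library preparation on the 10x platform. This gave 4 groups of 1 library: wildtype untreated and wildtype TNF, then Tnfr2-/- untreated and Tnfr2-/- TNF. The mesenchymal cells in the Tnfr2-/- cultures therefore carried the deletion too. Sets of 4 values keep that order throughout. With 1 library per group there was no replicate error and no test between groups was possible. Intervals are exact 95% limits that cover counting error only, so every difference below is between 2 cultures and not between 2 conditions.

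Ly6 proteins share a compact disulfide-bonded fold with the urokinase receptor. Most are tethered to the outer membrane leaflet by a glycosylphosphatidylinositol (GPI) anchor, and many of the mouse genes lie side by side in a cluster on chromosome 15. Ly6a encodes Sca-1, a stem cell surface antigen that also marks the fetal-like state of injured intestinal epithelium. Ly6c1 and Ly6g are best known as surface markers of leukocytes, Ly6d as an antigen of early B cells and keratinocytes, and Ly6e as an interferon-stimulated gene. Lypd8 is a heavily glycosylated protein of the colonic surface that binds flagellated bacteria and holds them away from the epithelium.

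The libraries held 2589, 1469, 1117 and 980 cells and between 44547639 and 87228093 unique molecular identifiers (UMIs, counted transcripts). Of these cells 1128, 1163, 1023 and 858 were in 7 deposited epithelial classes, and 1430, 306, 90 and 122 in 4 mesenchymal classes. The 6 genes together had 1104790 UMIs, and 3 cell barcodes were found in 2 libraries. Levels are counts per 1000000 UMIs of the same cells (CPM). Tnfrsf1b itself was counted in every library, at 4.17, 12.1, 1.82 and 6.89 CPM in epithelium. The sources used here do not say which exons the deletion removes, so this 3' count checks neither the loss nor the labels. Epithelial markers were high in the epithelial classes, with Krt8 between 3427 and 4702 CPM. The 6 endothelial markers summed to at most 0.725 CPM there and the 8 leukocyte markers to at most 7.77 CPM, which bears on Ly6c1 and Ly6g as familiar antigens of those cells. Of the leukocyte markers, between 1 and 3 were at 0 in each library's epithelium, and of the endothelial markers 3 or 4. Csf1r gave most of the leukocyte sum (0.934, 1.02, 3.71 and 7.52 CPM), while Itgam reached at most 0.101 CPM. The class makeup differed widely between libraries. Progenitor.1 gave 54.9%, 44.2%, 72.5% and 12.9% of the epithelial UMIs, Progenitor.2 gave 3.34%, 30.7%, 19.6% and 84.8%, and Absorptive gave 31.9%, 2.09%, 1.07% and 0.106%. The class Secretory-Reg4-Ang4 was found in the wildtype TNF library alone, where its 246 cells had a median of 1957.5 UMIs.

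Positions are from GENCODE M21 on GRCm38. The chromosome 15 members are Ly6d (ENSMUSG00000034634, chr15:74762056-74763620, minus strand), Ly6e (ENSMUSG00000022587, chr15:74955051-74959905, plus strand), Ly6a (ENSMUSG00000075602, chr15:74994877-74998031, minus strand), Ly6c1 (ENSMUSG00000079018, chr15:75044018-75048830, minus strand) and Ly6g (ENSMUSG00000022582, chr15:75155240-75159126, plus strand). Lypd8 (ENSMUSG00000013643, chr11:58379043-58390728, plus strand) lies apart on chromosome 11. All 6 are protein-coding and none overlaps another annotated gene. Between the outermost family genes of the cluster, chr15:74714839-75599481, the gene table held 29 genes, of which 19 belong to the family. Only 6 of the 29 reached 20 CPM in the epithelium of at least 1 library. They were the 5 members and 2010109I03Rik, which was at 29.3, 26.6, 26.3 and 107 CPM. Ly6c2 (at most 0.318 CPM) and Ly6i (at most 0.277 CPM), named here because they share sequence with members, were barely counted.

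The family's close copies bear on how reads were assigned. Of all stretches of 50 bases within the last 400 bases of its annotated transcripts, Ly6c1 shared 29.4% with another gene, mainly Ly6c2, and Ly6a shared 9.27%, mainly with Ly6c1. Ly6g shared 0.313%, and Ly6d, Ly6e and Lypd8 shared none. Reads from shared stretches are usually left uncounted or split, so the levels of Ly6a and Ly6c1 are less certain than those of the other 4.

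RefSeq promoter windows on GRCm38.p6 were matched for 3 members, Ly6c1, Ly6g and Lypd8, each at the first of 2 listed starts. The co-detection of Ly6c1 and Ly6g in single cells is described below, and Lypd8 lies on another chromosome. Whether promoter sequence has a part in co-detection was not tested. Each line gives the 250 bases before the start, 5′ to 3′ along the gene's strand. Capitals mark runs of at least 12 bases that the Ly6c1 and Ly6g windows have in common.
Ly6c1, chr15:75048838-75049087, minus strand: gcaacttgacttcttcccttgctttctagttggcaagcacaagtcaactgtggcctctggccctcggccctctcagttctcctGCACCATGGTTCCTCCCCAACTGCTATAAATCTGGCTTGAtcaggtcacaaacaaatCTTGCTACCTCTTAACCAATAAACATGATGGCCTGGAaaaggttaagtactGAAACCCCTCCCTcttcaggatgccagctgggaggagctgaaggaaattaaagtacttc
Ly6g, chr15:75155011-75155260, plus strand: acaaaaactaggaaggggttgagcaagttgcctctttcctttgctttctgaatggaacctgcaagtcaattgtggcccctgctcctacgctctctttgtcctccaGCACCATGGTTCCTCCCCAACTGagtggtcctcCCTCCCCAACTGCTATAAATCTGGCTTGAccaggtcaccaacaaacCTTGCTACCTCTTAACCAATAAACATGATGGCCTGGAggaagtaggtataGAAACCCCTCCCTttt
Lypd8, chr11:58378782-58379031, plus strand: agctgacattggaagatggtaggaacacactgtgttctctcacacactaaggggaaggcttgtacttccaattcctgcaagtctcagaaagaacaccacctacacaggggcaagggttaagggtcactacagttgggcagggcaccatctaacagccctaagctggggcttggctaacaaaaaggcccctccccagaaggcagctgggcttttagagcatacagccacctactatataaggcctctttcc
Common runs covered 36% of the Ly6c1 window and 40.8% of the Ly6g window, and the longest was 37 bases. The Lypd8 window had no such run with Ly6g, the longest match being 10 bases. TATAAA was found 143 bases before the start in Ly6c1 and 99 bases before it in Ly6g, in a common run, and not in Lypd8. It occurs on either strand in 12.4% of all 32851 RefSeq windows cut to the same 250 bases. The other motifs searched on both strands, none of which is in the 3 windows, were the interferon-response core GAAA, any 2 bases, GAAA (2.98% of all windows), the STAT-type site TTCNNNGAA (7.02%) and the TEAD-type site GGAATG (12.6%). These are matches of letters and not mapped sites.

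Across classes the members did not share 1 pattern. Ly6a, Ly6c1, Ly6d and Ly6e were highest in Progenitor.2 by the mean over libraries. Ly6e was spread over progenitor, secretory and mesenchymal classes, with 1096 CPM in Progenitor.2 and 982 CPM in Secretory-Reg4-Spdef-Lyz1. Lypd8 was highest in Absorptive, and Ly6g was high in both Absorptive and Progenitor.2. In wildtype untreated, the only library with enough Absorptive cells to compare, every member but Lypd8 was highest in Progenitor.2. Clu and Anxa1, from a list of 16 genes known from regenerating epithelium, were also highest in Progenitor.2. Class levels of most others on that list are not given, and the absorptive gene Guca2b had its highest level in Progenitor.2 too. Whether Progenitor.2 is the regenerative class is therefore not settled here. In the plot of level by class, the points of Ly6e lie between 112 and 1454 CPM, with 311 to 754 CPM in the enteroendocrine class. The points of the other 5 drop by 1 or more powers of 10 from Progenitor.2 to the enteroendocrine class in the libraries that can be compared.

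**Figure D1:**
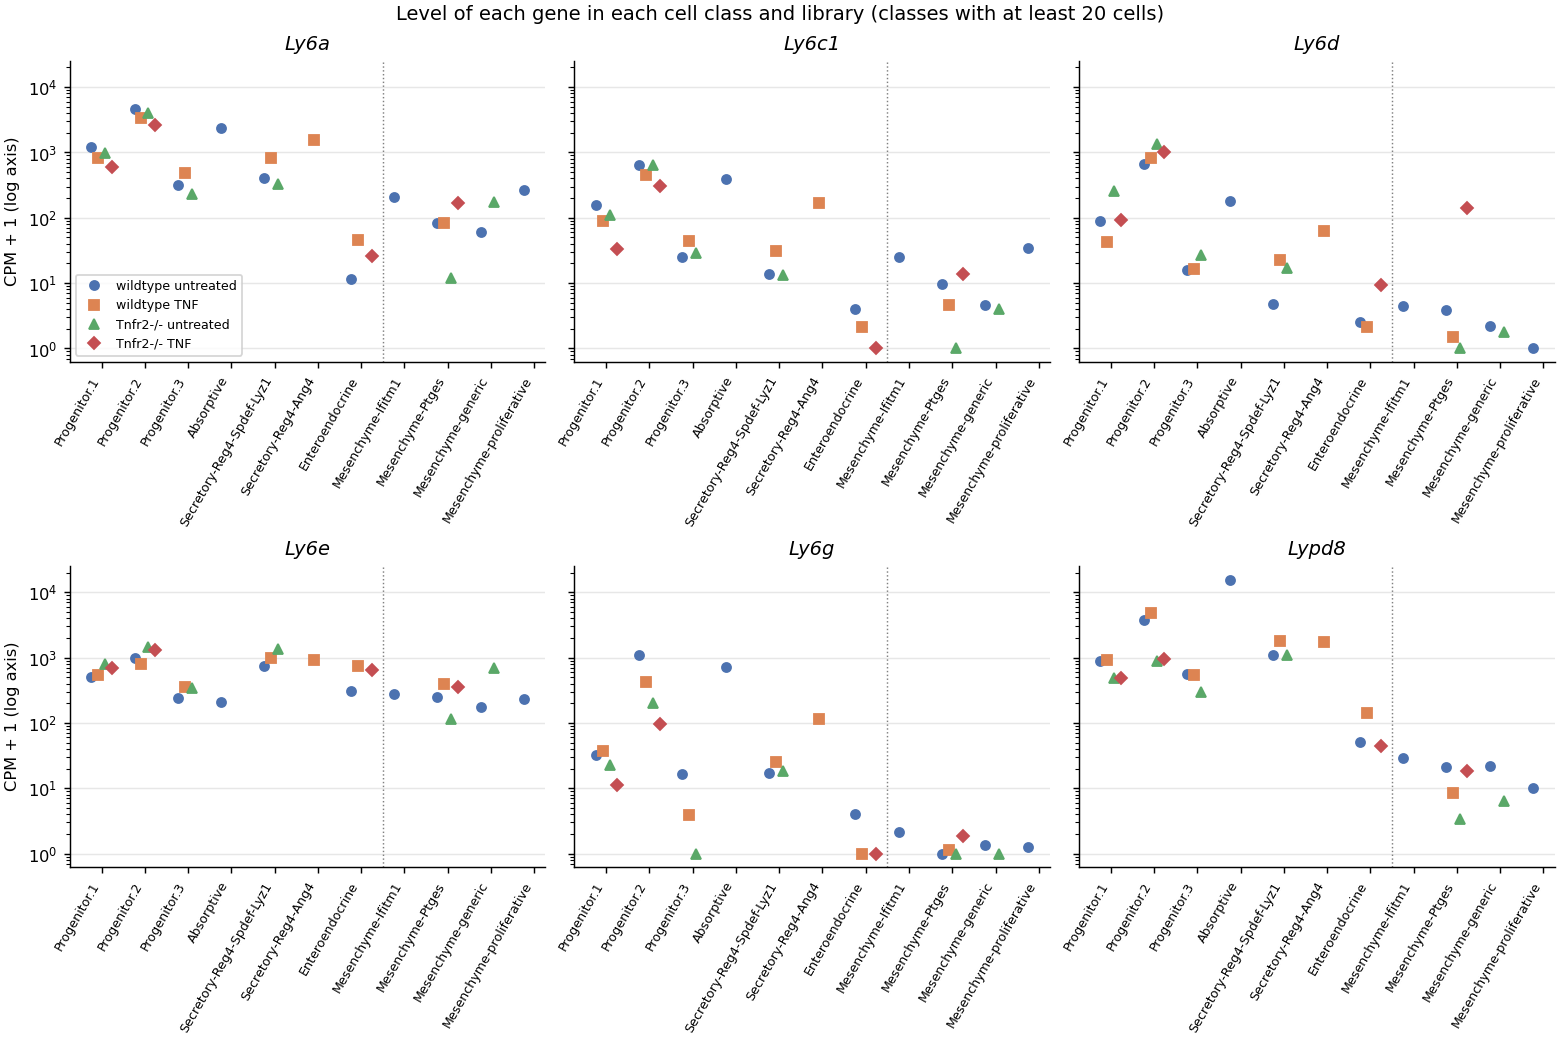
Level of each gene as CPM + 1 on a log axis in each deposited class with at least 20 cells, 1 point per library and class and no error bars, with mesenchymal classes right of the dotted line. Lypd8 has its highest point in Absorptive (15445 CPM), Ly6a its highest in Progenitor.2 (4621 CPM, wildtype untreated), and Ly6d has 1 mesenchymal point far above the rest (139 CPM, Tnfr2-/- TNF).

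Ly6a in Progenitor.2 was at 4621 (4519 to 4725), 3336 (3305 to 3368), 4005 (3966 to 4044) and 2635 CPM (2618 to 2653). The Progenitor.1 levels were 1219 (1206 to 1232), 816 (803 to 829), 968 (958 to 978) and 593 CPM (572 to 614). Progenitor.2 was above Progenitor.1 in all 4 libraries, and the ranges of the 2 classes did not overlap. In Absorptive the wildtype untreated library had 2359 CPM from 319 cells; the other libraries had 19, 11 and 1 Absorptive cells, too few for comparison here (3867, 1581 and 1333 CPM). Secretory-Reg4-Spdef-Lyz1 (410, 813 and 331 CPM in the first 3 libraries) and Progenitor.3 (320, 476 and 230 CPM) came lower, and their ranges overlapped. Enteroendocrine cells were lowest, with 10.7, 44.8 and 24.6 CPM in wildtype untreated, wildtype TNF and Tnfr2-/- TNF. The 18 enteroendocrine cells of the Tnfr2-/- untreated library stood apart at 303 CPM.

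Ly6c1 followed Ly6a at a lower level. Its values were 649, 453, 644 and 303 CPM in Progenitor.2 and 158, 87.0, 109 and 32.8 CPM in Progenitor.1. All Progenitor.2 values were above all Progenitor.1 values. Absorptive had 385 CPM in wildtype untreated. The 2 genes were not in a fixed ratio. Epithelium as a whole had 6.91, 8.26, 7.34 and 8.87 Ly6a UMIs per Ly6c1 UMI. Secretory-Reg4-Spdef-Lyz1 cells had 32.4 (23.2 to 46.4), 27.5 (23.8 to 31.9) and 27.3 (18.8 to 41.0) in the first 3 libraries. Progenitor.1 of the Tnfr2-/- TNF library also stood apart at 18.1 (15.5 to 21.3), against 7.71 to 9.38 in the other 3. In each of these cases the interval of the higher ratio lay above that of the whole epithelium of the same library.

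Ly6d was higher in Progenitor.2 than in Progenitor.1 in each library. It was at 665, 819, 1341 and 1032 CPM in Progenitor.2 and 87.7, 41.1, 258 and 92.4 CPM in Progenitor.1, and the ranges did not overlap. Absorptive had 181 CPM in wildtype untreated, and Secretory-Reg4-Spdef-Lyz1 had 3.87, 21.4 and 16.3 CPM in the first 3 libraries. Few cells carried most of it. In Progenitor.1 the top 10% of cells held between 80.6% and 98.8% of Ly6d UMIs, after each cell had been thinned at random to 5000 UMIs so that depth was equal. For Ly6a the same share was 38.2% to 48.7%, and for Ly6e 23.1% to 37.3%. For Ly6c1 it was 72.8% to 81.8%, and the sparser Ly6g had all of its UMIs in the top 10% in each library. In Progenitor.2 of the Tnfr2-/- TNF library 1 cell had 132 Ly6d UMIs of its 5000, while the median cell had 1.

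Ly6e had the flattest profile. Its levels were 967, 791, 1454 and 1295 CPM in Progenitor.2, 733, 971 and 1329 CPM in Secretory-Reg4-Spdef-Lyz1 (first 3 libraries) and 502, 545, 782 and 689 CPM in Progenitor.1. The first 2 of these ranges overlapped, so Progenitor.2 and the secretory class do not differ beyond the spread over libraries. Absorptive was the lowest epithelial class, at 209 CPM in wildtype untreated. That value lay inside the ranges of Mesenchyme-Ptges (112 to 396 CPM) and Mesenchyme-generic (174 to 703 CPM). Ly6e was thus the only member whose lowest epithelial class by the mean over libraries was the one where Lypd8 was highest. For Absorptive that mean rests on wildtype untreated alone.

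Lypd8 was highest in Absorptive, whereas Ly6g was high in both Absorptive and Progenitor.2. Lypd8 was at 15445 CPM (15385 to 15506) in the wildtype untreated Absorptive class, more than in any other class of at least 20 cells. It followed at 3703, 4833, 883 and 959 CPM in Progenitor.2 and 894, 920, 481 and 480 CPM in Progenitor.1. The ranges of these 2 progenitor classes overlapped across libraries. Secretory-Reg4-Spdef-Lyz1 also held Lypd8, at 1084, 1777 and 1090 CPM. Ly6g was at 723 CPM in Absorptive, at 1098, 427, 199 and 96.2 CPM in Progenitor.2 and at 31.6, 36.7, 22.0 and 10.3 CPM in Progenitor.1. Its Progenitor.2 levels spread more widely over libraries than those of any other member, and the Absorptive value lay inside that spread.

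Which classes supplied the UMIs depended on the library. In wildtype untreated, Absorptive cells held 87.7% of Lypd8 UMIs, 80.6% of Ly6g UMIs and 46.8% of Ly6a UMIs, against 31.9% of all epithelial UMIs. In the Tnfr2-/- TNF library, Progenitor.2 held between 89.95% and 98.5% of the UMIs of every member, against 84.8% of all UMIs. In that library the pooled epithelial level of any member is close to a level in Progenitor.2, whereas in wildtype untreated it is mostly a level in Progenitor.1 and Absorptive cells.

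**Figure D2:**
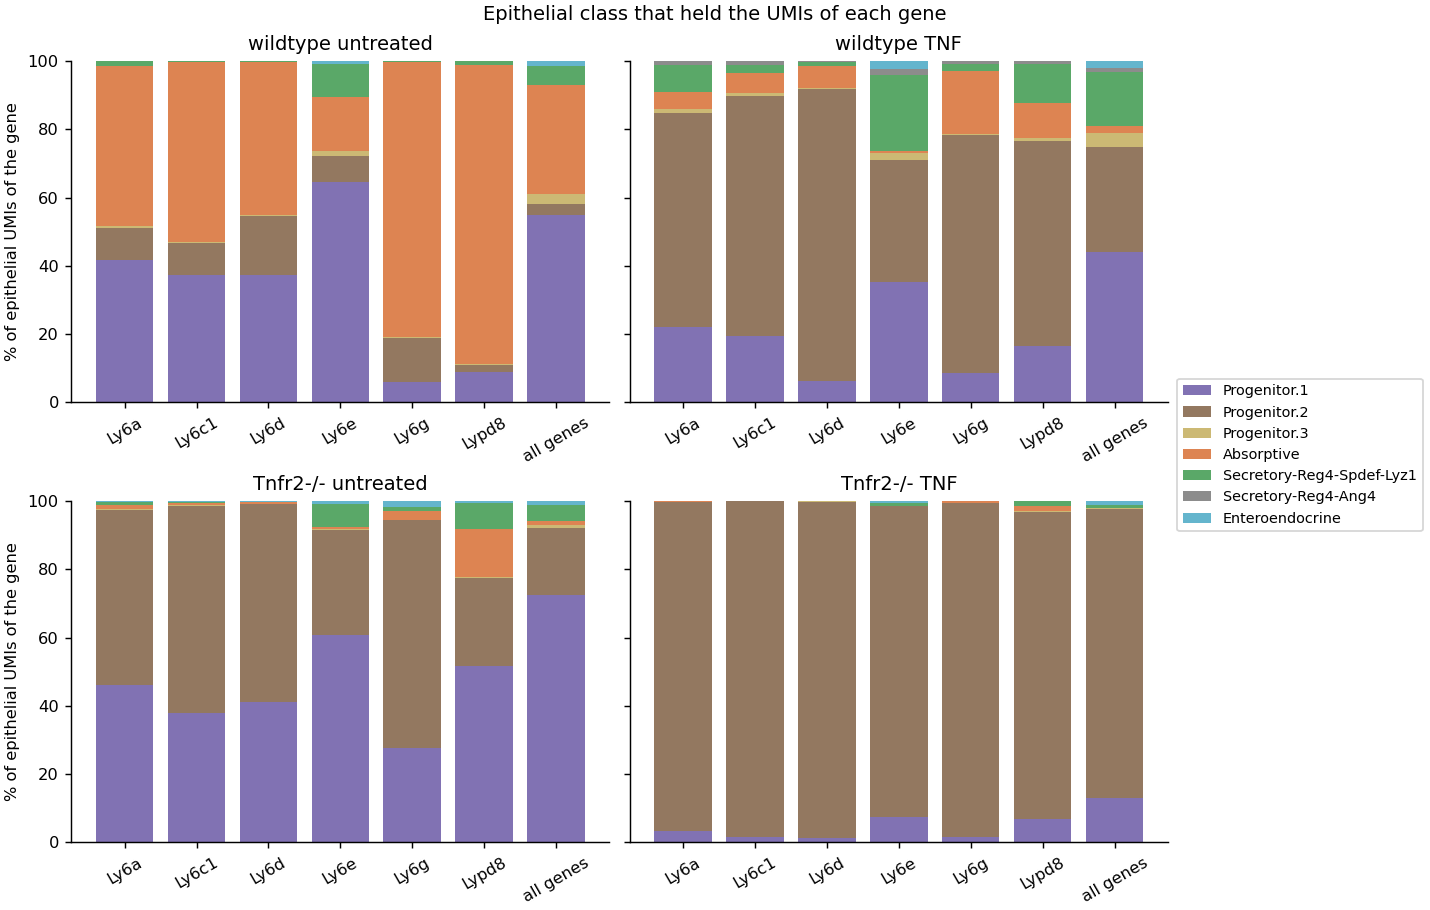
Share of each gene's epithelial UMIs (%) that came from each of the 7 epithelial classes, 1 panel per library, with the share of all UMIs as the last bar. In wildtype untreated Ly6g and Lypd8 come mostly from Absorptive (80.6% and 87.7%), and in Tnfr2-/- TNF every member comes mostly from Progenitor.2.

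The level of each member in mesenchymal cells was set beside its level in epithelium. Relative to epithelium of the same library, Ly6g was at 0.291%, 0.0725%, 0% (0 UMIs, which allows up to 1.38 CPM) and 1.00% in mesenchyme, and Lypd8 at 0.421%, 0.361%, 0.613% and 1.92%. Krt8, an epithelial keratin, was at 1.10%, 0.544%, 0.724% and 5.47%. Lypd8 and Ly6g in mesenchyme were thus below the relative level of Krt8. Ly6c1 was at 8.39%, 1.93%, 1.11% and 4.97%, above Krt8 in every library but Tnfr2-/- TNF. Ly6d was at 1.92%, 0.162%, 0.101% and 15.6%, above Krt8 in wildtype untreated and Tnfr2-/- TNF and below it in the others. Ly6a was above Krt8 in every library (10.8%, 5.05%, 7.36% and 7.23%), and Ly6e far above it (57.2%, 58.1%, 50.5% and 29.5%). Fibroblast-like cells are known to express Sca-1. Ly6e alone was found in most mesenchymal cells of every library, in 59.0%, 79.9%, 60.5% and 67.5% of cells after thinning.

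Ly6d in mesenchyme rested on single cells. It was at 2.47, 0.476, 0.459 and 139 CPM, and the high value came from 661 UMIs in 23 of 122 cells. Of those UMIs 638 (96.5%) lay in 5 cells and 356 in 1 cell. The 5 cells also held 298 Krt8 UMIs and 133 Col1a1 UMIs of 242343 in all, so epithelial and mesenchymal transcripts were counted under the same barcodes. Scrublet called 1 of the 23 cells a doublet. These 5 cells were singled out after their values were seen, and the part of mixed droplets in the value was not tested.

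Thinning to 5000 UMIs left out 405 of the 6155 cells, 298 of them in wildtype TNF. After it Ly6a was found in 70.3% (67.5 to 73.0), 82.0% (79.3 to 84.5), 75.5% (72.6 to 78.1) and 86.2% (83.7 to 88.4) of epithelial cells. Unthinned, the shares were 87.7%, 93.5%, 89.2% and 94.2%, at median depths of 37245.5, 30306, 41057 and 37368.5 UMIs. In mesenchyme the thinned shares were 29.1%, 23.5%, 31.4% and 16.7%, at median depths of 22642.5, 48633, 24549 and 37644.5 UMIs. Mesenchyme expresses Ly6a and Ly6e, so for these genes it is no clean background. Ly6d was found in 13.2%, 24.5%, 30.6% and 53.4% of thinned epithelial cells (32.0%, 38.9%, 54.3% and 72.8% unthinned) and in 0.494%, 0.336%, 0% and 6.67% of thinned mesenchymal cells. The 0% is 0 of 86 cells, with an exact upper limit of 4.20%. Ly6g was found in 26.2%, 22.9%, 8.08% and 14.4% of thinned epithelial cells and in at most 0.565% of mesenchymal cells. Lypd8 was in 74.6%, 81.6%, 48.9% and 49.4% of thinned epithelial cells and in 6.63%, 4.03%, 1.16% and 6.67% of mesenchymal cells. Ly6e was found in 68.2%, 82.5%, 90.6% and 91.7% of thinned epithelial cells. In either treatment the Tnfr2-/- library thus had a smaller share of cells with Ly6g and Lypd8 and a larger share with Ly6d and Ly6e. Cells of a culture are not replicates, and the share of all genes that differ in this way was not counted.

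The genotype comparison asks how the family differed in cultures without TNF receptor 2. In untreated epithelium, Ly6d and Ly6e were higher in Tnfr2-/- and Ly6g and Lypd8 were lower, whereas Ly6a and Ly6c1 were nearly level. Lypd8 was at 5620 (5599 to 5641), 2470 (2455 to 2485), 675 (667 to 682) and 904 CPM (895 to 914) in epithelium. The 2 wildtype values were above the 2 Tnfr2-/- values, by 8.33-fold untreated and 2.73-fold with TNF. Ly6g was at 286 (281 to 291), 188 (183 to 192), 58.0 (56.0 to 60.2) and 83.5 CPM (80.7 to 86.4), again higher in both wildtype libraries, by 4.92-fold and 2.25-fold. Ly6d was at 129 (126 to 132), 293 (288 to 298), 453 (447 to 459) and 889 CPM (880 to 898), so it was 3.52-fold and 3.03-fold higher in Tnfr2-/-. Ly6e was at 427 (421 to 433), 682 (674 to 690), 931 (923 to 940) and 1206 CPM (1196 to 1217), higher in Tnfr2-/- by 2.18-fold and 1.77-fold. Ly6a was at 1609 (1598 to 1620), 1631 (1619 to 1643), 1523 (1513 to 1534) and 2316 CPM (2301 to 2331), and Ly6c1 at 233 (229 to 237), 197 (193 to 202), 208 (204 to 212) and 261 CPM (256 to 266). For these 2 genes the pooled Tnfr2-/- level was below that of wildtype in untreated cultures and above it with TNF. Within Progenitor.1 and Progenitor.2 neither gene was higher in Tnfr2-/- in either pair, as given below.

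By a fixed rule of at least 2-fold on log2(CPM + 1), with 20 CPM or more in 1 library of the pair, 2 members were higher (Ly6d, Ly6e) and 2 lower (Ly6g, Lypd8) in untreated Tnfr2-/- epithelium. Of all 6021 genes that met the minimum, 2.42% were higher and 3.59% lower. With TNF 1 was higher (Ly6d) and 2 were lower (Ly6g, Lypd8), beside 5.04% and 6.37% of 6073 genes. The share of called genes that were higher in the TNF pair depended on the scaling: 306 of all genes were higher and 387 lower (44.2% higher), but with TMM factors 435 were higher and 263 lower (62.3%). The median over all genes was 0.11 (untreated) and -0.10 (TNF) on the log2 scale here, and -0.002 and 0.08 with TMM factors. With TMM factors every member kept its direction in both genotype comparisons.

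The same comparisons were made within classes. In Progenitor.2, Ly6g was 5.52-fold and Lypd8 4.19-fold lower in untreated Tnfr2-/- than in wildtype, and with TNF 4.44-fold and 5.04-fold lower. Ly6d was 2.02-fold higher there in untreated cultures and 1.26-fold with TNF. The rule called 3 members (Ly6d, Ly6g, Lypd8) in the untreated pair and 2 (Ly6g, Lypd8) in the TNF pair, beside 7.98% and 7.92% of all genes in either direction. The wildtype untreated Progenitor.2 class had only 62 cells with a median depth of 15574.5 UMIs, against 33685 to 39167 in the other 3 libraries, and the part of depth was not tested. In Progenitor.1 Ly6d was 2.94-fold and 2.25-fold higher in Tnfr2-/-. It was the only member called in the untreated pair, and with TNF Ly6c1 (2.65-fold) and Ly6g (3.55-fold) were called lower as well. The background there was 2.25% and 3.33% of genes. Lypd8 in Progenitor.1 was 1.86-fold and 1.91-fold lower in Tnfr2-/-, short of the rule. Ly6a was lower in Tnfr2-/- in both pairs, by 1.26-fold and 1.38-fold in Progenitor.1 and by 1.15-fold and 1.27-fold in Progenitor.2. Untreated, Ly6c1 was 1.45-fold lower in Progenitor.1 and level in Progenitor.2 (intervals overlapping). With TNF it was 1.50-fold lower in Progenitor.2.

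The pooled differences were set beside class makeup by exchanging class shares. When the class levels of wildtype untreated were weighted by the class shares of Tnfr2-/- untreated, the pooled Lypd8 level was 1595 CPM instead of 5620, against 675 CPM measured in Tnfr2-/-. The log2 difference was then -1.24 instead of -3.06. For Ly6g the same exchange gave 246 CPM instead of 286, and the log2 difference was -2.07 instead of -2.28. Ly6d went from 1.81 to 1.21 and Ly6e from 1.12 to 0.64. In this pair the exchange moved Lypd8 more than any other member, and Ly6e no longer passed 2-fold. In the genotype pair with TNF, Ly6d went from 1.60 to 0.34 and no longer passed 2-fold, and Lypd8 went from -1.45 to -2.23. In that pair Ly6a went from 0.51 to -0.35 and Ly6c1 from 0.40 to -0.60. For TNF in wildtype, where the exchange uses the levels of only 19 Absorptive cells, Ly6g went from -0.61 to 1.00 and Lypd8 from -1.19 to -0.26 (no longer past 2-fold), and for TNF in Tnfr2-/- Ly6g went from 0.52 to -1.04. The exchange was chosen after the data were seen.

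The TNF comparison asks how the family differed in cultures exposed to the cytokine. Pooled over epithelium, Ly6d was 2.27-fold higher with TNF in wildtype and 1.96-fold higher in Tnfr2-/-. Ly6e was 1.60-fold and 1.30-fold higher. Lypd8 was 2.28-fold lower with TNF in wildtype but 1.34-fold higher in Tnfr2-/-, and Ly6g was 1.52-fold lower in wildtype and 1.44-fold higher in Tnfr2-/-. Ly6a was level in wildtype (log2 difference 0.02, intervals overlapping) and 1.52-fold higher in Tnfr2-/-. In wildtype the rule called Ly6d higher and Lypd8 lower, beside 2.54% and 1.08% of 5833 genes. In Tnfr2-/- it called 0 members in either direction, beside 5.55% higher and 7.81% lower of 6143 genes. No test stands behind that 0, and Ly6d at 0.97 on the log2 scale lay just inside it. Here too the split of all genes turned with TMM factors, from 341 higher and 480 lower (41.5% higher) to 485 and 308 (61.2%). Over all genes tested the median log2 difference was 0.04 (wildtype) and -0.12 (Tnfr2-/-), and -0.06 and 0.05 with TMM factors. Ly6a in wildtype was at -0.08 with TMM factors, and the other members kept their direction.

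Inside the progenitor classes the picture in Tnfr2-/- was the opposite of the pooled one for Ly6a, Ly6c1, Ly6d and Ly6g, while Ly6e and Lypd8 differed little. All 6 members were higher with TNF in pooled Tnfr2-/- epithelium, by 1.26-fold to 1.96-fold. Yet in Progenitor.1 Ly6c1 was 3.32-fold, Ly6d 2.79-fold, Ly6g 2.13-fold and Ly6a 1.63-fold lower with TNF. Ly6e was 1.14-fold lower, and Lypd8 was level (481 and 480 CPM; log2 difference 0.16 with TMM factors). In Progenitor.2 Ly6c1 was 2.13-fold, Ly6g 2.07-fold, Ly6a 1.52-fold, Ly6d 1.30-fold and Ly6e 1.12-fold lower, and Lypd8 1.08-fold higher. The rule called 3 members lower in Progenitor.1 (Ly6c1, Ly6d, Ly6g) and 2 in Progenitor.2 (Ly6c1, Ly6g), beside 2.02% and 1.99% of all genes in either direction. Progenitor.2, where all 6 members were higher than in Progenitor.1 in both libraries, went from 19.6% to 84.8% of epithelial UMIs between these libraries. With the class levels of Tnfr2-/- untreated weighted by the class shares of Tnfr2-/- TNF, Ly6a would have pooled to 3531 CPM against 2316 measured, and Ly6d to 1172 CPM against 889 measured.

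**Figure D3:**
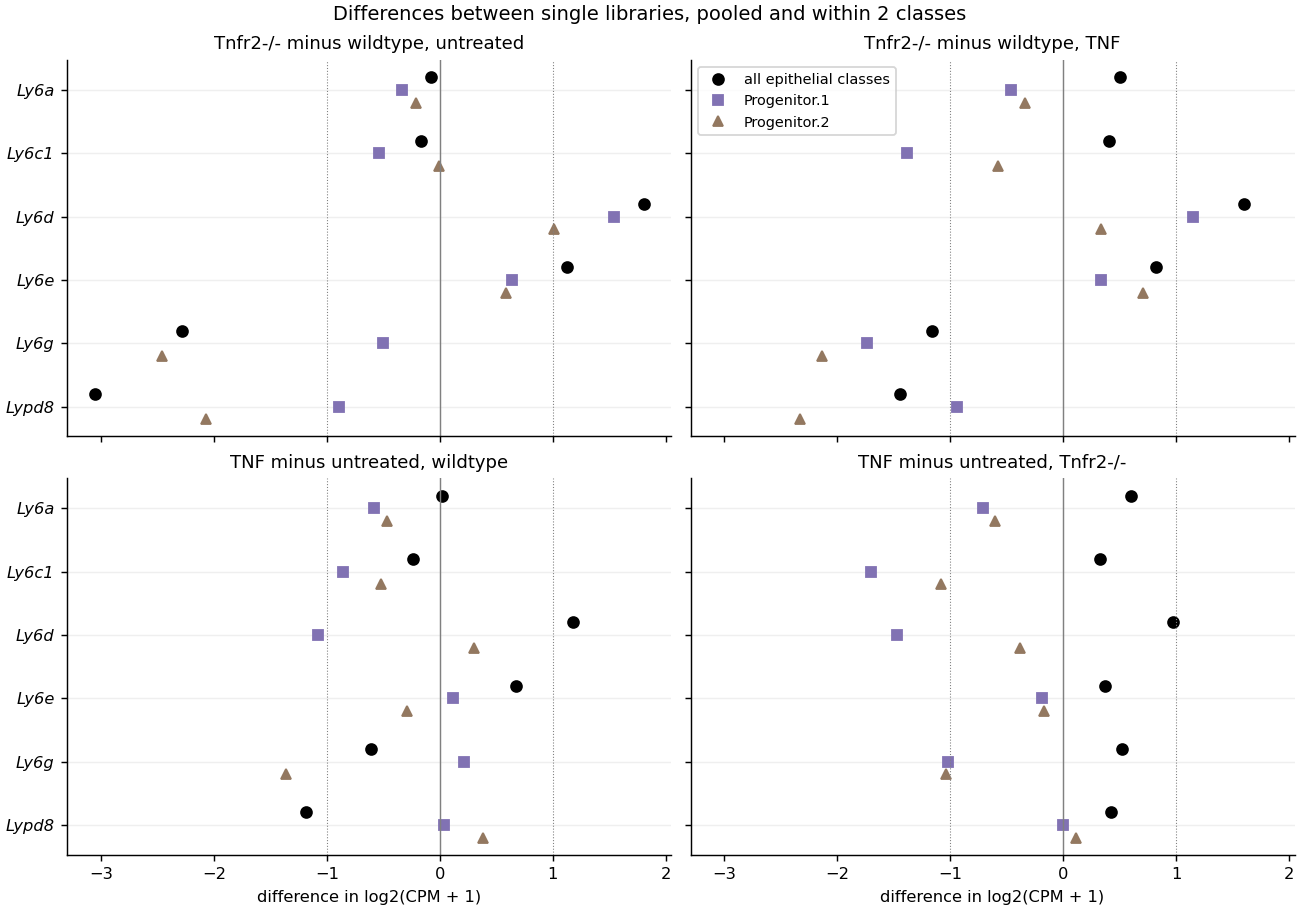
Differences in log2(CPM + 1) between single libraries for each gene in the 4 comparisons, for all epithelial classes together (black circles) and within Progenitor.1 (squares) and Progenitor.2 (triangles); dotted lines mark 2-fold and there are no error bars. In the panel for TNF in Tnfr2-/-, all 6 black circles lie right of 0 while 11 of the 12 class points lie left of it, 10 of them between -0.17 and -1.70.

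In wildtype, too, pooled and class values diverged. Ly6d was 2.27-fold higher with TNF in pooled wildtype epithelium, 2.13-fold lower in Progenitor.1 and 1.23-fold higher in Progenitor.2. Ly6g was 2.57-fold lower with TNF in wildtype Progenitor.2 and 1.16-fold higher in Progenitor.1. Ly6a was 1.50-fold and 1.39-fold lower in the 2 classes, and Ly6c1 1.82-fold and 1.43-fold lower. Lypd8, lower in the pooled sum, was 1.03-fold (log2 difference -0.06 with TMM factors) and 1.31-fold higher in the 2 classes. The rule called 1 member in each class, Ly6d in Progenitor.1 and Ly6g in Progenitor.2, beside 2.46% and 7.46% of all genes. The counting intervals of the 2 libraries overlapped for Ly6a in pooled wildtype with TNF and for Lypd8 in Progenitor.1 of Tnfr2-/- with TNF. They also overlapped for Ly6c1 in Progenitor.2 of untreated Tnfr2-/- against wildtype. Intervals of sums this large are narrow, and the share of all genes without overlap was not counted. Lack of overlap is therefore no result about the members. A difference outside counting error is not thereby outside the spread between cultures, which is unknown.

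In the class Mesenchyme-Ptges, which all 4 libraries held (34, 304, 37 and 122 cells), Ly6a was at 81.7, 82.0, 10.8 and 167 CPM and Ly6e at 245, 396, 112 and 356 CPM. The Tnfr2-/- untreated library was lowest for both genes. In each pair 3 members reached the minimum. The rule called 3 of them lower in untreated Tnfr2-/- against wildtype (Ly6a, Ly6e, Lypd8), beside 24.7% of all genes, with Lypd8 at 20.4 CPM in wildtype and 2.40 CPM in Tnfr2-/- and overlapping intervals, and 2 higher with TNF (Ly6a, Ly6d), beside 14.6%. With TNF it called 1 lower in wildtype (Lypd8, 20.4 and 7.46 CPM with overlapping intervals), beside 24.4%, and 3 higher in Tnfr2-/- (Ly6a, Ly6d, Ly6e), beside 8.71%. The Ly6d calls rest on the 5 cells described above. In Tnfr2-/- TNF, Ly6a was at 620 CPM in the 23 cells with Ly6d and at 30.1 CPM in the others, which is below the 82.0 CPM of wildtype TNF. The median depth of this class in wildtype untreated was only 5755 UMIs, against 21965 to 48633 in the other libraries, and the part of depth was not tested.

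Other genes of the family and of related programmes, in lists chosen with earlier results known, give the surroundings. Of 33 other Ly6 and uPAR family genes, 32 were in the table and at most 2 reached 20 CPM in any pair. Plaur, the urokinase receptor, was at 12.9, 25.7, 21.5 and 52.4 CPM, and was called higher in Tnfr2-/- with TNF against wildtype and with TNF in Tnfr2-/-. Ly6g6e was at 24.1, 32.8, 13.7 and 11.9 CPM and was called lower in Tnfr2-/- with TNF. Ly6g6c (4.39 to 15.7 CPM) and Psca (9.62 to 13.8 CPM) did not reach the minimum in epithelium as a whole, though Psca was at 244 CPM in Progenitor.2 of wildtype untreated. The list's median log2 differences were -0.04, -0.20, 0.68 and 1.25 in the genotype pairs (untreated, TNF) and the TNF pairs (wildtype, Tnfr2-/-), over 2, 2, 2 and 1 genes. In pooled epithelium the members were the main expressed part of the family. They were chosen with earlier results of these data known, so this is no independent result. Mesenchyme was not counted for this list, and a pooled sum can hide a high level in a single class, as for Psca.

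Genes of GPI anchor synthesis and attachment, on which most Ly6 proteins depend for surface display, did not pass 2-fold in any comparison. Of 24 listed genes in the table between 10 and 12 met the minimum, and 0 were called. Their medians were 0.04, -0.33, -0.19 and -0.29. Pigp was at 64.8, 55.4, 47.2 and 37.6 CPM and Pigt at 65.5, 57.7, 82.3 and 72.6 CPM. Dpm3 lay between 47.9 and 68.2 CPM and Dpm2 between 56.1 and 66.0 CPM.

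Genes known from regenerating epithelium were more often higher than lower in Tnfr2-/-. Of 14 tested in the untreated pair 6 were higher and 1 lower, with a median of 0.83, and of 13 in the TNF pair 5 were higher and 2 lower, with a median of 0.71. With TNF, 2 were higher and 1 lower in each genotype (13 and 14 tested; medians 0.22 and 0.42). Clu, a marker of revival stem cells, was at 343, 399, 806 and 1556 CPM and Anxa1, a mucosal repair protein, at 685, 810, 1555 and 2951 CPM, both in the order of the 4 Ly6d values and both highest in Progenitor.2. Basp1, a membrane-bound signalling protein, was at 18.7, 90.2, 82.1 and 342 CPM. Spp1, which encodes the secreted protein osteopontin, went the other way at 113, 27.3, 31.9 and 12.6 CPM.

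Interferon-stimulated genes, the kind to which Ly6e belongs, were more often higher in untreated Tnfr2-/-, as Ly6e was, and more often lower with TNF in Tnfr2-/-, where Ly6e was not. Of 22 tested in the untreated genotype pair 9 were higher in Tnfr2-/- and 0 lower (median 0.90). With TNF 1 was higher and 2 were lower of 17 (median 0.29). In wildtype 1 was higher and 2 were lower with TNF of 14 (median -0.16), and in Tnfr2-/- 0 were higher and 11 lower of 23 (median -0.82). Isg15, a ubiquitin-like protein, was at 57.1, 27.2, 145 and 48.0 CPM. Ifit1, an RNA-binding antiviral protein, was at 19.6, 6.12, 62.5 and 21.4 CPM, and the chemokine gene Cxcl10 at 42.6, 20.4, 55.2 and 7.82 CPM. B2m, the light chain of class I antigens, was at 189, 390, 278 and 502 CPM, higher with TNF in both genotypes as was Ly6e.

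Absorptive colonocyte genes had the directions of Lypd8 in all 4 pairs by their medians. In untreated epithelium 0 of 15 tested were higher and 13 lower in Tnfr2-/- (median -3.18), and with TNF 1 was higher and 6 were lower of 14 (median -0.58). With TNF in wildtype 2 were higher and 8 lower of 16 (median -0.74), and in Tnfr2-/- 6 were higher and 0 lower of 10 (median 1.22). Aqp8, a water channel, was at 165, 25.3, 1.52 and 3.62 CPM, and the mucin gene Muc3 at 451, 213, 42.7 and 55.0 CPM. Sult1b1, a sulfotransferase, was at 138, 67.2, 12.2 and 17.6 CPM. Guca2b, which encodes uroguanylin, was at 31.6, 240, 11.7 and 17.8 CPM, with its highest level in Progenitor.2 of wildtype TNF and not in Absorptive.

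Markers of other states moved beside these values. The 4 proliferation markers summed to 428, 413, 668 and 186 CPM in epithelium. They had 3 of 4 lower in Tnfr2-/- with TNF against wildtype and 4 of 4 lower with TNF in Tnfr2-/-, and 0 called in the other 2 pairs. The 7 secretory and enteroendocrine markers summed to 1952, 3506, 1102 and 594 CPM, with 1 lower in Tnfr2-/- untreated, 5 lower with TNF, 2 higher with TNF in wildtype and 2 lower in Tnfr2-/-. Their part in the values of the members was not tested. None of the 5 epithelial markers was called in any pair.

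Genes that resembled each member most were found over the 27 sums of a class and library with at least 20 cells, among 10113 genes, by Pearson's r of log2(CPM + 1). The sums share libraries and large differences between epithelium and mesenchyme, so r is a description. Ly6a was closest to Ly6c1 (0.95), the integrin gene Itgb4 (0.93) and the small GTPase gene Arf6 (0.91), and Ly6c1 to Ly6a, Tmem37 (0.91) and Paqr5 (0.90). Ly6d was closest to Syt8 (0.94), the mesothelin gene Msln (0.93) and Slc25a48 (0.92). Ly6e was closest to the oxidase gene Duox2 (0.89), Tnf (0.80) and Sec23b (0.79), and no other member had its first neighbour so low. Ly6g was closest to Themis3, the growth factor gene Areg and the brush border protease gene Mep1a (all 0.93), and Lypd8 to Prss32, Hsd17b2 and Phgr1 (all 0.97). Areg and Msln are also on the list of regenerative genes. Among the members themselves r ranged from 0.42 (Ly6c1 and Ly6e) to 0.95 (Ly6a and Ly6c1), and all 15 pairs were positive.

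Between single cells of 1 class the members related differently from these sums. Ly6a and Lypd8, with r = 0.80 over the 27 sums, had r = -0.24, -0.04, -0.24 and -0.31 across thinned Progenitor.1 cells and -0.40, -0.18, -0.25 and -0.28 across Progenitor.2 cells of the 4 libraries. In all 8 combinations of these classes and libraries r was below 0. In Absorptive of wildtype untreated (317 cells), however, it was 0.06. Over all epithelial cells it was 0.27, 0.29, -0.19 and -0.21, so the opposition was not general. Ly6e and Lypd8 were more strongly opposed in Progenitor.2 (-0.63, -0.56, -0.50 and -0.45). Ly6g and Lypd8 went together there (0.45, 0.41, 0.43 and 0.35) but not in Progenitor.1 (-0.01 to -0.15). Ly6a and Ly6c1 were positive in all 8 combinations, from 0.30 to 0.68. In sparse counts a value near 0 shows little, and cells of a library share their culture.

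**Figure D4:**
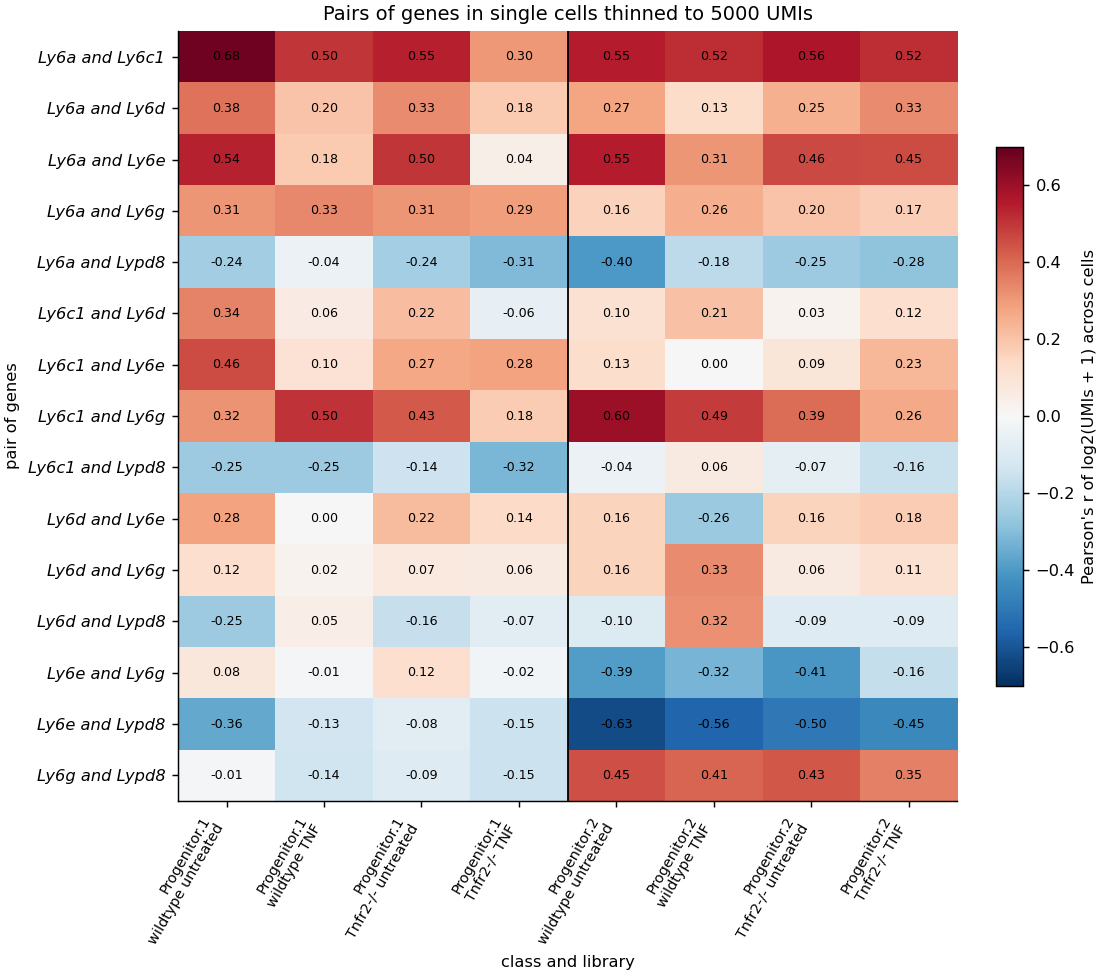
Pearson's r of log2(UMIs + 1) across cells thinned to 5000 UMIs for all 15 pairs of genes (rows) in Progenitor.1 and Progenitor.2 of each library (columns), red above 0 and blue below. The row for Ly6a and Lypd8 is blue in all 8 columns (-0.04 to -0.40), and the row for Ly6g and Lypd8 is red in Progenitor.2 only.

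The mean Ly6a count shows the size of the opposition of Ly6a and Lypd8 in Progenitor.1 and Progenitor.2. In thinned Progenitor.1 cells without a Lypd8 UMI the mean was 10.6, 6.48, 5.86 and 3.81 Ly6a UMIs per 5000, and in cells with one it was 2.71, 2.80, 2.99 and 1.66. Cells without Lypd8 thus had 3.90, 2.32, 1.96 and 2.30 times as much. In Progenitor.2 the means were 22.7, 22.7, 20.0 and 16.8 without Lypd8 and 12.3, 13.6, 13.0 and 7.55 with it, which is 1.85, 1.67, 1.54 and 2.23 times as much. The direction was the same in all 8 combinations. The original depth of the cells without Lypd8 was lower in 4 of the 8 and higher in the other 4; in wildtype untreated Progenitor.2 the medians were 42538.5 UMIs in the 16 cells without it and 14591 UMIs in the 40 cells with it.

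**Figure D5:**
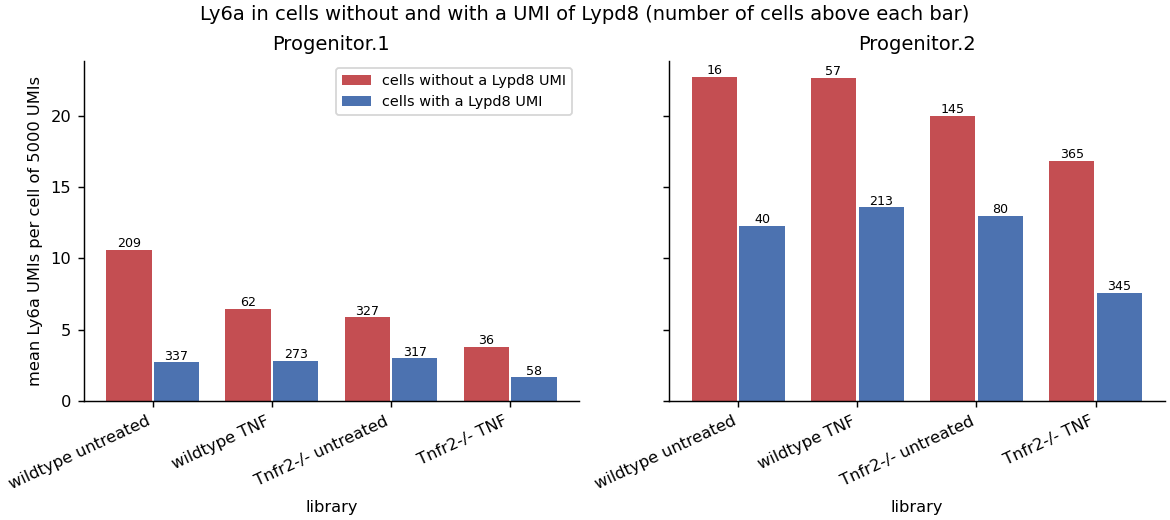
Mean Ly6a UMIs per cell thinned to 5000 UMIs in cells without (red) and with (blue) a Lypd8 UMI, for Progenitor.1 and Progenitor.2 of each library, with the number of cells above each bar and no error bars because cells are not replicates. The red bar is the taller one in every pair, by 1.54 to 3.90 times.

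Co-detection in the same cell was read against the product of the 2 single shares, which is what unrelated detection would give at equal depth. Ly6c1 and Ly6g were found together in 16.5% (14.3 to 18.8), 17.5% (15.1 to 20.2), 6.06% (4.66 to 7.73) and 8.27% (6.51 to 10.3) of epithelial cells. The products were 8.30%, 7.56%, 2.20% and 4.84%, so the pair was seen 1.99, 2.32, 2.76 and 1.71 times as often as the product. Within Progenitor.2 the factor was 1.18, 1.20, 1.47 and 1.51, and in Progenitor.1 2.58, 4.10 and 3.25 in the first 3 libraries, from 27, 13 and 23 cells with both. In mesenchyme of wildtype untreated 1 of 1417 cells had both. Of the cells with a Ly6g UMI, 63.0%, 76.5%, 75.0% and 57.4% also had Ly6c1.

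Ly6a was found in nearly every cell that had Ly6c1, in 98.0%, 97.2%, 98.5% and 100% of them in epithelium, whereas 35.5% to 44.2% of cells with Ly6a had Ly6c1. The pair was seen together 1.39, 1.19, 1.31 and 1.16 times as often as the product. Ly6d and Lypd8 were found together less often than the product in Progenitor.1. In Progenitor.1 of wildtype untreated 12 of 546 cells had both (2.20%, 1.14 to 3.81), against a product of 7.01%, a factor of 0.314. The factors in the other libraries were 0.982, 0.668 and 0.912, and in Progenitor.2 0.958, 1.13, 0.884 and 0.855. Ly6g and Lypd8 were found together more often than the product in Progenitor.2, by 1.30, 1.17, 2.26 and 1.54 times. In Progenitor.1 they were found together less often than the product. The factors there were 0.887, 0.750 and 0.538 in wildtype untreated, wildtype TNF and Tnfr2-/- untreated.

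A typical epithelial cell held 3 of the 6 members at 5000 UMIs, in every library, against 1 in mesenchyme. The share of epithelial cells with 4 or more was 30.1%, 35.7%, 26.0% and 41.4%, and 23, 61, 11 and 27 cells had all 6. Progenitor.2 of wildtype TNF had the most, with 73.3% of 270 cells at 4 or more and a median of 4.5. The other Progenitor.2 classes had 46.4%, 51.6% and 47.6%, and Absorptive of wildtype untreated had 61.2%. In Progenitor.1 the share was 17.2%, 17.9%, 20.0% and 10.6%, below Progenitor.2 in every library. In mesenchyme at most 0.833% of cells had 4 or more.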

How the data were processed

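RNA of single cells from 4 organoid cultures was measured by 3' sequencing with UMIs. The deposited values are whole-number UMI counts per gene and cell, which the authors made from the reads. Per the submitters' processing notes, Cell Ranger 5.0.0 and the mm10 build were used. Per the study's methods the authors removed cells under 100 UMIs and doublets of epithelial with mesenchymal cells and assigned classes with monocle3, and the lowest cell deposited had 894 UMIs. The deposited class of each cell was used as given, and its library was taken from the deposited cell table. Table columns without a sample numbered 0.

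The members and all gene lists were chosen with earlier results of these data known. For each class and library, counts were added up and scaled to the UMIs of those cells (CPM). Differences are on log2(CPM + 1), which understates changes of low genes. A gene entered a comparison at 20 CPM in 1 library of the pair, and classes under 20 cells were not compared. Intervals are exact (Poisson for sums, Clopper-Pearson for shares) and the limit for a count of 0 is 3 counts. They cover counting error only. Depth was 44547639 to 87228093 UMIs per library. With 1 library per group no test was run. Shares and correlations used cells thinned to 5000 UMIs (seed 1).

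The lists were other Ly6 and uPAR genes, regenerative, interferon-stimulated, absorptive and GPI anchor genes, and markers of epithelium, mesenchyme, endothelium, leukocytes, proliferation and secretory cells. The mesenchymal markers summed to 12.5, 17.3, 4.76 and 5.68 CPM in epithelium. The text names all members, the 3 genes most correlated with each, and at most 4 genes per list: those past 2-fold in both pairs of a comparison, then the most abundant. Other genes named were chosen after their values were seen. Scrublet (scanpy 1.11.5, expected rate 0.06) called 46 of 6155 cells doublets (0.747%), which were kept. Of these 25 had no class. Python 3.11.15, scipy 1.17.1 and edgeR 4.0.16 in R 4.3.3 (TMM factors only) were used. Alternatives were other pseudocounts, minima, scalings, class weights, thinning depths and cell filters.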

Additional observations from a re-analysis of the deposited data

Results flagged for a closer look

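Several effects pointed in opposite directions in 2 settings. With 1 library per group none of these differences was tested. Positive values are higher in Tnfr2-/- for genotype effects and higher with TNF for TNF effects, in log2(CPM + 1).

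In pooled epithelium the genotype effect on Ly6a was -0.08 untreated and 0.51 with TNF, a difference of 0.58. That on Ly6c1 was -0.16 and 0.40, a difference of 0.57. The TNF effect on Ly6c1 was -0.24 in wildtype and 0.33 in Tnfr2-/-, again 0.57 apart, since it rests on the same 4 values. The TNF effect on Ly6g was -0.61 and 0.52, a difference of 1.12, and that on Lypd8 was -1.19 and 0.42, a difference of 1.61. Within classes the genotype effect with TNF was not above 0 for Ly6a or Ly6c1. That on Ly6a was -0.46 in Progenitor.1 and -0.34 in Progenitor.2, and that on Ly6c1 was -1.38 and -0.58. Class makeup differed between these libraries, and its part was not tested.

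Within Progenitor.1 the TNF effect on Ly6e was 0.12 in wildtype and -0.18 in Tnfr2-/-, a difference of -0.30. For Ly6g it was 0.21 and -1.02, a difference of -1.23. Within Progenitor.2 the TNF effect on Ly6d was 0.30 and -0.38, a difference of -0.68. In Mesenchyme-Ptges the genotype effect on Ly6a was -2.81 untreated and 1.02 with TNF, a difference of 3.83, with 37 cells in the Tnfr2-/- untreated library. In Tnfr2-/- TNF Ly6a was at 620 CPM in the 23 cells with Ly6d and at 30.1 CPM in the others, against 82.0 CPM in wildtype TNF.

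The 31 cells of wildtype untreated that carry no class were in no comparison above. They held Ly6a at 1251 CPM, Ly6c1 at 141 CPM, Ly6d at 178 CPM, Ly6e at 506 CPM, Ly6g at 261 CPM and Lypd8 at 3403 CPM. Their median depth was 66566 UMIs, against 26293 over all cells of that library. Over all libraries 35 cells carried no class, and Scrublet called 25 of them doublets. The part of doublets in these levels was not tested.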

How the results depend on the processing

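Of 72 differences of members (6 genes, 4 comparisons, pooled epithelium and 2 progenitor classes), the direction flipped in 3 with TMM factors, 4 with median-of-ratios factors, 9 with a mean over cells and 1 without doublet calls, and in 0 with either other pseudocount, either other minimum or only cells of at least 2000 UMIs. Of the 24 pooled differences it flipped in 10 with equal weights and in 9 with class shares of 1 library (added after seeing the data). Equal weights means the plain mean of Progenitor.1 and Progenitor.2. The other epithelial classes, Absorptive among them, did not enter it. Lypd8 with TNF in wildtype went to 0.32 with equal weights. Without Secretory-Reg4-Ang4 (added likewise) 0 of 24 flipped. For TNF in Tnfr2-/-, 1 member (Ly6d) passed 2-fold with TMM factors, median-of-ratios factors or a mean over cells, and 2 (Ly6c1, Ly6g) with equal weights or exchanged shares. For TNF in wildtype 1 passed with equal weights (Ly6g) and 1 with exchanged shares (Ly6d). Equal weights or exchanged shares ended the calls of Ly6e in the untreated genotype pair and of Ly6d with TNF, and a mean over cells that of Ly6g with TNF. The causes were not tested.

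Genes past 2-fold numbered 362, 693, 211 and 821 (genotype untreated, genotype with TNF, TNF in wildtype, TNF in Tnfr2-/-). They numbered 944, 1582, 517 and 1458 with no minimum and 683, 1228, 382 and 1315 with a minimum of 5 CPM, where more genes entered. A pseudocount of 10 CPM gave 237, 409 and 461 for the genotype pairs and TNF in Tnfr2-/-, and equal weights gave 298 for genotype with TNF and 99 for TNF in Tnfr2-/-.

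Thinning depth moved most shares: 69, 66 and 59 of 72 with no thinning, 2000 and 10000 UMIs, against 3 with another random draw. The side of the product flipped in 36, 28 and 25 of 180 pair shares and in 0 without doublet calls. No paired analysis was possible because each group had 1 library, and none could be left out.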
